A study of Mus musculus with 54 samples.

Results

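The EGR transcription factor genes Egr1, Egr2 and Egr3, the NAB corepressor genes Nab1 and Nab2, and the immediate early response genes Ier2, Ier3 and Ier5 are described here as a set of 8 mouse genes. They were taken by gene symbol from a table of 24421 genes, and all 8 passed the filter on low counts that 14196 genes passed. The study concerns hematopoietic stem cells (HSC) of lethally irradiated mice, and what 16,16-dimethyl prostaglandin E2 (dmPGE2), a stabilised form of the lipid signal prostaglandin E2, does to their transcripts when it is injected first. All mice carried a green ZsGreen reporter in the Fgd5 locus on a C57BL/6 background. HSC were sorted from bone marrow by SLAM and LSK surface markers and by the reporter, and RNA was sequenced in bulk. The groups were irradiated mice that received dmPGE2, taken 1 h after 8.53 Gy (8 samples), irradiated mice that received vehicle, taken at 1 h (8), non-irradiated mice that received dmPGE2, taken at 1 h (7), irradiated dmPGE2 mice taken at 24 h (8), irradiated vehicle mice taken at 24 h (8), and non-irradiated vehicle mice (15 table columns). Injections were given under the skin 30 min before irradiation, with ethanol as the vehicle. The labels state 35 µg of dmPGE2, whereas the stated 3.5 µL of a 0.1 mg/ml solution holds 0.35 µg, so the dose is uncertain.

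EGR proteins are zinc finger transcription factors whose genes are switched on within minutes of a signal, without new protein synthesis. The signal reaches them through the kinase ERK, which acts on ternary complex factors bound with serum response factor (SRF), and through cAMP and the factor CREB, which prostaglandin E2 receptors can activate. NAB proteins bind EGR1, EGR2 and EGR3 and repress their target genes, and Nab2 is itself an EGR target, which makes a negative feedback loop. In mouse bone marrow, Egr1 is known to hold HSC quiescent and in their niche. Ier2, Ier3 and Ier5 are immediate early genes that belong to no single protein family: Ier2 and Ier5 encode related nuclear proteins, Ier3 (also called IEX-1) encodes a regulator of cell survival, and IER5 is known in human cells as a p53 target that helps to activate the heat shock factor HSF1.

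The non-irradiated vehicle columns were taken to hold fewer sources than columns, though the labels list 15 samples. 7 of the 15 have a later run of sample numbers and share the tag in their names (such as 5-2) with 1 of the other 8, and each of the 7 resembled its namesake best (correlation of deviations 0.601 to 0.925 over 1047 genes, against -0.683 to 0.716 with other sources). In all 7 pairs the genes of the sex chromosomes agreed. Those with a non-irradiated dmPGE2 library of the same tag correlated with it at 0.0823 to 0.762, so likeness went with a shared tag between different samples too. Over genes, the SD of log2 differences was 0.261 to 0.422 within pairs and 0.280 to 0.479 between columns of different tags. Repeats of 1 source were therefore assumed and not established. Counts of columns with a shared tag were summed to 8 sources, which gave 47 samples in all. The sample titles give 1 h for 8 non-irradiated vehicle samples and 24 h for 7, the same numbers as the first and the later columns. The 7 later columns may therefore be separate mice taken at 24 h, and the column names cannot settle this. They give no time after injection, so all these columns serve as 1 baseline for 1 h and 24 h. Genes of the sex chromosomes gave 10 male and 5 female baseline columns where the labels give 8 and 7, and fitted the labels in the other groups. Total counts per column ran from 15049364 to 26217041. All 10 genes of the HSC list were detected in every group. CPM are read counts scaled to a common library size. Kit had a median of 1271 CPM and Fgd5, the gene that carries the reporter, 82.1 CPM. The list also holds Cd34 and Cd48, which do not mark HSC alone, with Cd48 lowest at a median of 12.3 CPM. Summed HSC markers below are sums over all 10 genes. In bulk samples, fewer cells of a type and less RNA per cell cannot be told apart. Nothing in the labels says that the cells of 1 sample came from more than 1 mouse.

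For the well-expressed members, the columns taken as 1 source differed by less than the sources did. Egr1 had 643.7 and 697 CPM in the 2 columns of baseline source 5, and 41.1 and 45.7 CPM in those of source 2. The SD within the 7 pairs of columns was 0.11 for Egr1 and 0.080 for Ier2 on the log2 scale, against 1.27 and 0.70 between sources. For Egr2 the SD was 0.59 within pairs and 0.48 between sources, so the baseline level of Egr2 could not be told apart from source to source at this depth.

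**Figure D1:**
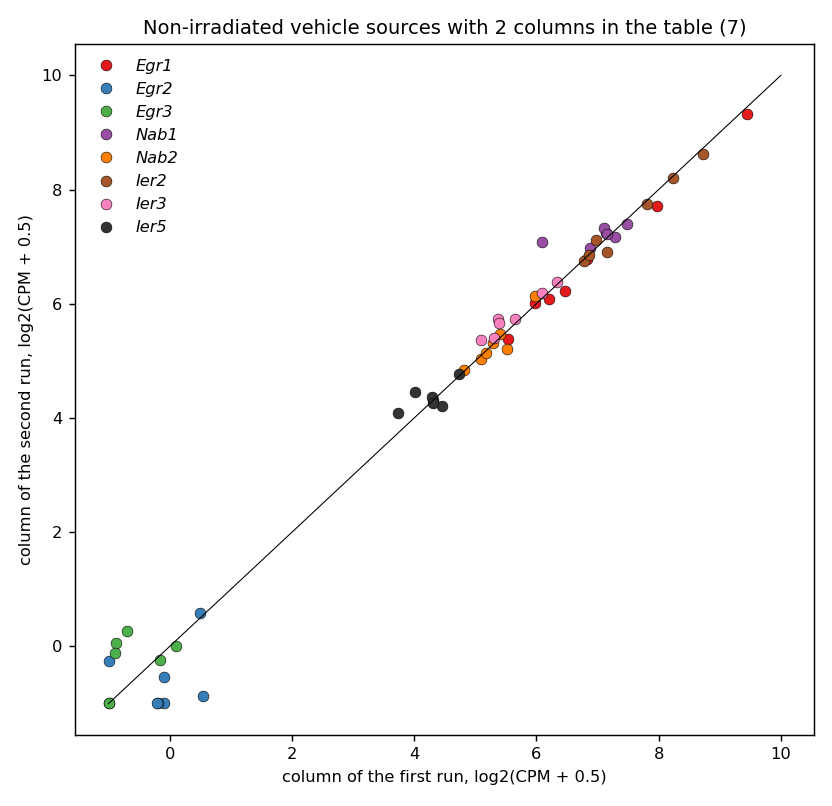
Level of each of the 8 genes in the 7 non-irradiated vehicle sources that have 2 columns, on log2(CPM + 0.5) axes, with the line of equality. Points of Egr1, Ier2, Ier3, Nab2 and Ier5 lie close to the line, while those of Egr2 and Egr3, at or below about 1 CPM, scatter.

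The 250 bases before the start of 4 members are shown because these genes responded differently at 1 h: Egr2 rose with dmPGE2, Nab2 rose with dmPGE2 and with radiation, Ier5 rose with radiation and was lower with dmPGE2 after it, and Nab1 passed in none of these tests. Sequences are from RefSeq, build GRCm38.p6, 5′ to 3′ on the strand of the gene. Capitals mark matches on either strand to the CArG box (bound by SRF), TGACG (part of the site of CREB), GCGNGGGCG (EGR proteins), GAANNTTC (heat shock factors), CCAAT (the factor NF-Y) or CCGGAA (ETS factors, which include the ternary complex factors). The full CREB site TGACGTCA, which contains TGACG, was searched as well.
Egr2, chr10:67537619-67537868, plus strand: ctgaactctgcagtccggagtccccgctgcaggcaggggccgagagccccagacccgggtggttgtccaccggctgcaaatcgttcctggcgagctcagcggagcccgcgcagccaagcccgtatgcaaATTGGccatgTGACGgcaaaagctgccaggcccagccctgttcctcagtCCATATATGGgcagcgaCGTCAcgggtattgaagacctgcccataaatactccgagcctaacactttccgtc
Nab1, chr1:52500449-52500698, minus strand: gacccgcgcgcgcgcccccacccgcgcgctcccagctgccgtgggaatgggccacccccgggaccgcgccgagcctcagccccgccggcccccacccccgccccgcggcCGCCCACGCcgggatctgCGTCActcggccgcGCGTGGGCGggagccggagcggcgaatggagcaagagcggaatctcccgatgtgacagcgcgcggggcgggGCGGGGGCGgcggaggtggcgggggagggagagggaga
Nab2, chr10:127666704-127666953, minus strand: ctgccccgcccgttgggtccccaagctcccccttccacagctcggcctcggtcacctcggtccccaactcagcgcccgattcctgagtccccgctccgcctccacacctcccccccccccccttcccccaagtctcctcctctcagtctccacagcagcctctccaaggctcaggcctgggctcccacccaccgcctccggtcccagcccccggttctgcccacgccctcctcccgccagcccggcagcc
Ier5, chr1:155099637-155099886, minus strand: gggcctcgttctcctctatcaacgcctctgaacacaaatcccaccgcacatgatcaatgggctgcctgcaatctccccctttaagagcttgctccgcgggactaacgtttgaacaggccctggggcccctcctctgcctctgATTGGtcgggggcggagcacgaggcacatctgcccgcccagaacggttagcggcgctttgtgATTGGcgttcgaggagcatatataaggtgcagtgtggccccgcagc

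The Egr2 stretch holds 1 CArG box, 72 to 63 bases before the start, 2 copies of TGACG, and 1 CCAAT. Among the 32851 promoter stretches of the same length, 1.47% hold a CArG box and 17.8% hold TGACG. The Nab1 stretch, at 80.8% G and C, holds 3 copies of GCGNGGGCG, a motif found in 4.70% of all stretches, and 1 TGACG. The Ier5 stretch holds 2 copies of CCAAT, 108 to 104 and 46 to 42 bases before the start, and CCAAT stands in 33.8% of all stretches. The letters of the searched motifs are not in the Nab2 stretch. Ier3 has 2 copies of CCAAT as well. TGACGTCA, GAANNTTC and CCGGAA, which 1.55%, 6.69% and 12% of all stretches hold, were in none of the 5 members with an entry. A match describes letters and not a bound site. Egr1, Egr3 and Ier2 are named only.

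The genes lie on several chromosomes of mm10, the build of the deposited counts. Ier5 has 1 exon on chromosome 1 (155096367 to 155099636) and Ier2 has 1 exon on chromosome 8 (84661331 to 84662852). Nab1 has 8 exons on chromosome 1 (52455849 to 52500448). Egr2 (67537869 to 67542188, 2 exons) and Nab2 (127660918 to 127666703, 7 exons) share chromosome 10, Egr3 has 4 exons on chromosome 14 (70077445 to 70082613) and Ier3 has 2 on chromosome 17 (35821713 to 35822911). Nab2 shares 70 exon bases with Stat6. The library kit marks no strand, so reads from those bases cannot be assigned to either gene. No other member overlaps an exon of another gene in the table.

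Per kilobase of exon, the members differed by over 3 orders of size in non-irradiated vehicle HSC. Ier2 was highest with 129.5 CPM per kb, followed by Egr1 with 54.9 and Ier3 with 49 CPM per kb. Egr1 and Ier3 did not differ beyond the spread of Egr1, whose SD over 8 sources was 68.9 CPM per kb. Nab1 followed at 28.1 ± 4.41, Nab2 at 15.6 ± 4.41 and Ier5 at 6.11 ± 1.04 CPM per kb (SD, n = 8 sources). Egr2 had 0.132 and Egr3 0.0579 CPM per kb. Their raw counts reached no more than 151 reads per sample for Egr2 and 35 for Egr3, so both are measured with wide error throughout. Their highest group means were in the dmPGE2 groups at 1 h.

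dmPGE2 raised Egr1, Egr2, Nab2 and Ier2 in irradiated HSC at 1 h and lowered Ier5. In that comparison of irradiated dmPGE2 with irradiated vehicle mice, 5 of the 8 members passed the test, 4 higher and 1 lower, where 15% of all genes tested passed (6.92% higher and 8.04% lower). Radiation with vehicle raised Nab2, Ier2, Ier3 and Ier5 against non-irradiated vehicle mice at 1 h, which is 4 of 8 members against 10.9% of genes (5.85% higher). dmPGE2 without radiation raised Egr1, Egr2, Nab2 and Ier2, again 4 of 8, against 7.95% of genes (3.42% higher). Irradiated dmPGE2 mice had 6 of 8 members higher than non-irradiated vehicle mice at 1 h, against 13.4% of genes (6.46% higher). The comparisons with non-irradiated vehicle mice share those 8 sources. Passing the test means a Benjamini-Hochberg adjusted p below 0.05 in edgeR's quasi-likelihood test over all genes. The median log2 fold change of the 8 members with dmPGE2 after radiation was 0.96, beside 0.01 over all genes tested.

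**Figure D2:**
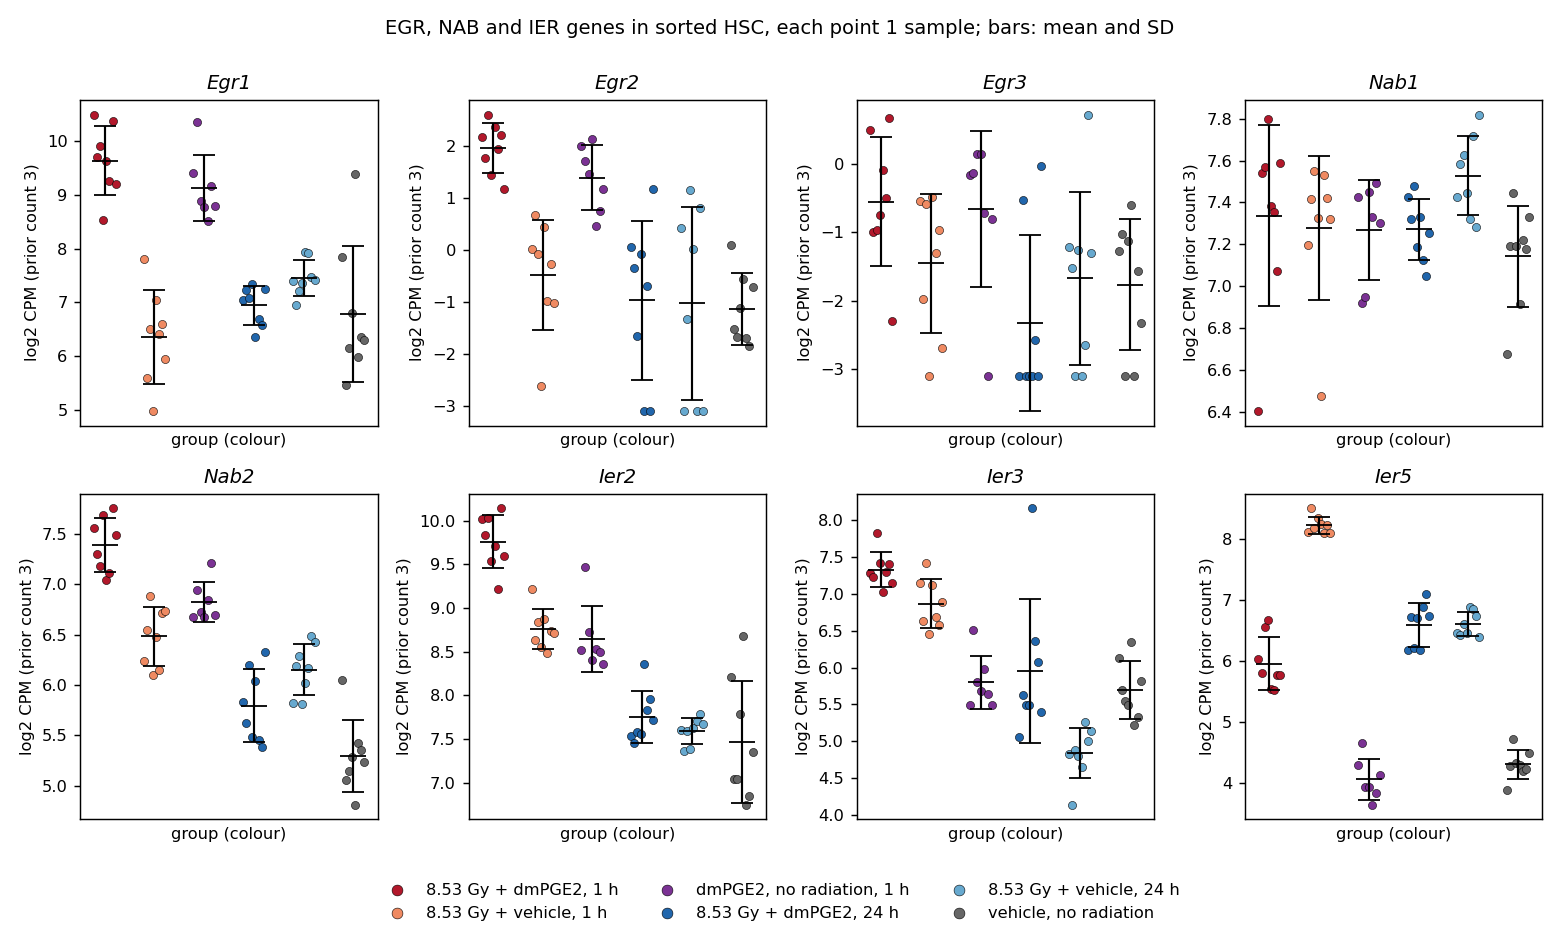
Log2 CPM of each of the 8 genes in the 6 groups, 1 point per sample, with mean and SD as bars. Egr1, Egr2, Nab2 and Ier2 stand highest in irradiated dmPGE2 mice at 1 h, and Ier5 in irradiated vehicle mice at 1 h, where its 8 points lie above every other sample.

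Egr1 had 371, 818 and 1449 CPM (lowest, median and highest of 8) in irradiated dmPGE2 mice at 1 h, against 31.4, 87.9 and 224.5 CPM in irradiated vehicle mice. The ranges did not overlap. This made a log2 difference of 3.18 for Egr1 (SE 0.43, adjusted p = 3.65e-07), a 9.04-fold higher level. Non-irradiated dmPGE2 mice had 365, 474 and 1314 CPM, against 43.8, 79.6 and 673 CPM in non-irradiated vehicle mice, where 1 baseline source alone reached into the range of the dmPGE2 mice. This difference was 1.86 (SE 0.42, adjusted p = 0.00209). It was 1.87 with an adjusted p of 0.0516 when the model held those groups alone.

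The baseline source with 673 CPM of Egr1, source 5, also had 753 CPM of Fos, where the other 7 sources had 1.97 to 50.8 CPM. The other 7 sources had 43.8 to 229 CPM of Egr1. The same tag stands in the name of the dmPGE2 library with the highest Egr1 in each 1 h dmPGE2 group, at 1449 CPM with radiation and 1314 CPM without. Without baseline source 5, Egr1 differed by 2.67 (SE 0.35, adjusted p = 5.76e-07) between non-irradiated dmPGE2 and vehicle mice. Radiation with vehicle shifted Egr1 by -0.81 (SE 0.40, adjusted p = 0.229) at 1 h, and -0.01 without that source. Whether the response of Egr1 to dmPGE2 differed with radiation was tested directly, and the difference of 1.31 (SE 0.58, adjusted p = 0.351) did not pass. It was 0.51 without baseline source 5.

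Egr2, a relative of Egr1 with the same DNA binding site, was likewise higher with dmPGE2, at a far lower level. It had 2.14, 4.06 and 5.95 CPM in irradiated dmPGE2 mice at 1 h, against 0.0459, 0.769 and 1.47 CPM in irradiated vehicle mice, with no overlap. Its fold change was 2.40 on the log2 scale (SE 0.71, adjusted p = 0.0146). Non-irradiated dmPGE2 mice had 1.26, 2.63 and 4.27 CPM, against 0.160, 0.285 and 0.954 CPM in non-irradiated vehicle mice, again with no overlap (2.78, SE 0.73, adjusted p = 0.00905). That value was 2.45 with an adjusted p of 0.0520 once the run of sample numbers in the column names was a term of the model.

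Egr3 was too low to test with any precision. It had a median of 0.537 CPM in irradiated dmPGE2 mice and 0.343 CPM in irradiated vehicle mice at 1 h, and 0.777 CPM in non-irradiated dmPGE2 mice and 0.258 CPM in non-irradiated vehicle mice. All these ranges overlapped. The log2 fold change with dmPGE2 after radiation was 1.09, with a 95% interval of -0.79 to 2.97 (adjusted p = 0.512). A difference as large as that of Egr2 was therefore not excluded for Egr3. Egr4, a further EGR gene listed among the relatives of the members, had 0.650 to 2.15 CPM in irradiated dmPGE2 mice at 1 h. Non-irradiated vehicle mice had 0 to 0.368 CPM (log2 difference 3.62, SE 1.01, adjusted p = 0.00892). Irradiated vehicle mice at 1 h had 0 to 1.42 CPM of Egr4, which overlapped the irradiated dmPGE2 mice. With dmPGE2 against vehicle, Egr4 passed neither after radiation nor without it at 1 h. Wt1, whose protein binds EGR-like sites, did not pass the filter and was at 0 in most samples.

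The NAB genes, whose proteins hold EGR proteins in check, went separate ways. Nab2 had 132, 168 and 216 CPM in irradiated dmPGE2 mice at 1 h, against 68.6, 91.4 and 118 CPM in irradiated vehicle mice. Non-irradiated dmPGE2 mice had 102, 106 and 148 CPM, against 27.9, 38.1 and 66 CPM in non-irradiated vehicle mice. Neither pair of ranges overlapped, and irradiated vehicle mice lay wholly above non-irradiated vehicle mice too. dmPGE2 raised Nab2 by 0.91 (SE 0.15, adjusted p = 5.76e-06) after radiation and by 1.5 (SE 0.15, adjusted p = 1.74e-10) without it. Radiation with vehicle raised Nab2 by 1.17 (SE 0.15, adjusted p = 2.29e-08).

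Nab2 was thus higher after either treatment alone, and highest after both, at 2.08 on the log2 scale above non-irradiated vehicle mice (SE 0.15, adjusted p = 2.38e-15). The response to dmPGE2 differed by -0.60 on the log2 scale between irradiated and non-irradiated mice, which did not pass (adjusted p = 0.147). Nab1 had 84.6, 176 and 222 CPM in irradiated dmPGE2 mice, against 88.8, 165 and 187 CPM in irradiated vehicle mice at 1 h. Its log2 fold change was 0.08 with a 95% interval of -0.19 to 0.34. With dmPGE2 alone the interval was -0.15 to 0.40, and with radiation and vehicle -0.11 to 0.41, so a change of Nab1 as large as that of Nab2 lay outside all 3 intervals.

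Ier2 rose with each treatment. It had 598, 875 and 1127 CPM in irradiated dmPGE2 mice at 1 h, against 359, 424 and 594 CPM in irradiated vehicle mice, with no overlap. Non-irradiated dmPGE2 mice had 328, 366 and 707 CPM, against 108, 147.5 and 409.9 CPM in non-irradiated vehicle mice, where the ranges overlapped through baseline source 5 alone. The log2 fold changes with dmPGE2 were 1.01 (SE 0.19, adjusted p = 0.000104) after radiation and 1.07 (SE 0.20, adjusted p = 0.000133) without. Radiation raised Ier2 by 1.15 (SE 0.19, adjusted p = 1.53e-05) with vehicle and by 1.10 (SE 0.20, adjusted p = 0.000907) under dmPGE2, and the response to dmPGE2 differed by -0.06 between the 2 settings (95% interval -0.61 to 0.50).

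Ier3, the survival gene, rose with radiation. It had 87.9, 111 and 171 CPM in irradiated vehicle mice at 1 h, against 37.0, 49.1 and 81.1 CPM in non-irradiated vehicle mice, with no overlap (1.16, SE 0.27, adjusted p = 0.00233). Irradiated dmPGE2 mice had 131, 156 and 228 CPM, against 44.7, 51.4 and 91.5 CPM in non-irradiated dmPGE2 mice, again with no overlap. That difference was 1.51 (SE 0.29, adjusted p = 0.00220). dmPGE2 without radiation gave 0.10, with a 95% interval of -0.46 to 0.67. Between irradiated dmPGE2 and irradiated vehicle mice the difference was 0.45 (adjusted p = 0.306), and with pairing by the tag in the column names it was 0.47 (adjusted p = 0.00824). In a model of those groups alone it passed at 0.45 (adjusted p = 0.0283). All groups share the estimate of the spread. Without libraries 5, 6 and 7 of the 24 h dmPGE2 group the adjusted p was 0.0352, and without library 5 alone 0.0573.

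Under dmPGE2, radiation changed 3 of the 8 members (Ier2, Ier3 and Ier5, all higher), where it changed 0.387% of all genes tested (0.366% higher). Nab2 was 0.58 higher on the log2 scale in that comparison (SE 0.15, adjusted p = 0.0814). With the tag as a block Nab2 passed at 0.59 (adjusted p = 0.0227). Egr1, Egr2, Egr3 and Nab1 gave 0.50, 0.55, 0.11 and 0.10 and did not pass.

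Ier5 showed the largest radiation response of the 8 and was the only member called lower with dmPGE2 at 1 h. It had 273, 295 and 362 CPM in irradiated vehicle mice at 1 h, against 14.7, 19.4 and 26.5 CPM in non-irradiated vehicle mice. The lowest irradiated sample was far above the highest of the baseline, and the log2 fold change was 3.91 (SE 0.16, adjusted p = 1.44e-24), or 15-fold. Irradiated dmPGE2 mice had 46.2, 55.1 and 102 CPM, below every irradiated vehicle sample and above every non-irradiated one. The log2 difference of -2.21 (SE 0.15, adjusted p = 3.83e-16) between the irradiated groups amounts to a 4.63-fold lower level with dmPGE2.

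Without radiation, Ier5 had 12.4, 15.3 and 25.1 CPM in dmPGE2 mice, against 14.7, 19.4 and 26.5 CPM in vehicle mice, and the ranges overlapped. The difference was -0.23 (95% interval -0.54 to 0.08, adjusted p = 0.518). The response to dmPGE2 was lower with radiation than without (log2 difference -1.98, SE 0.21, adjusted p = 2.13e-09). Ier5 was 1 of 8 members to pass that test, where 2.32% of genes did (1.43% lower). Under dmPGE2, radiation still raised Ier5 by 1.93 (SE 0.16, adjusted p = 3.99e-12). Ier5l, a gene related to Ier5, rose with radiation and vehicle at 1 h (2.58, SE 0.56, adjusted p = 0.000752), with a median of 4.23 CPM against 0.673 CPM in non-irradiated vehicle mice. Ier5l did not pass with dmPGE2 after radiation, where its medians were 4.09 CPM with dmPGE2 and 4.23 CPM with vehicle.

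**Figure D3:**
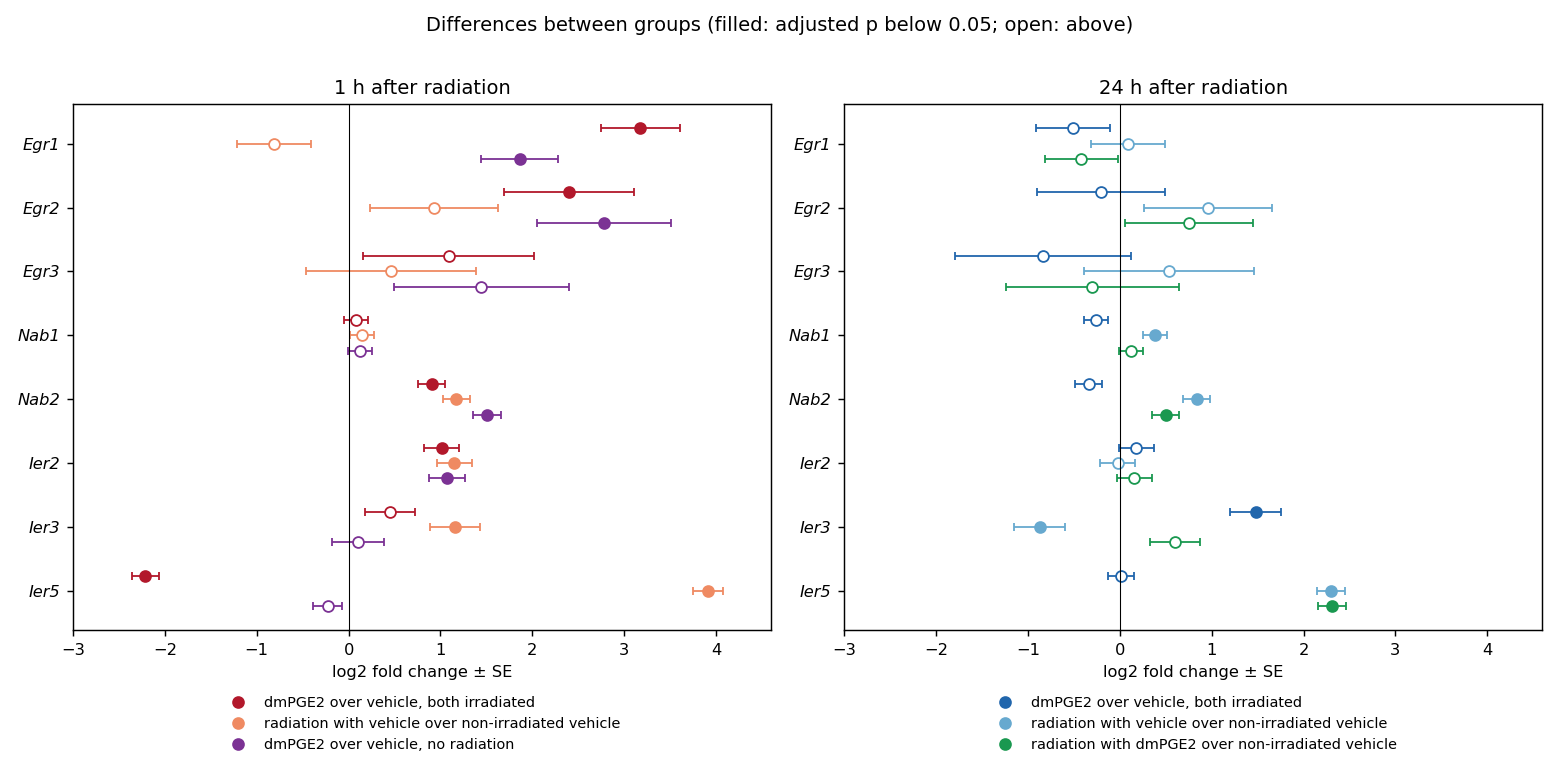
Log2 fold change with SE of each of the 8 genes in 3 comparisons at 1 h (left) and 3 at 24 h (right), with filled points past an adjusted p of 0.05. At 1 h Ier5 stands at 3.91 with radiation and at -2.21 with dmPGE2 after radiation, whereas at 24 h its dmPGE2 value is 0.01 and its radiation values are 2.29 and 2.31.

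At 24 h, 1 of the 8 members passed between irradiated dmPGE2 and irradiated vehicle mice, where 23.9% of all genes tested did (12.4% higher). That member was Ier3. It had 33.2, 47.1 and 286.5 CPM in irradiated dmPGE2 mice, against 17.5, 28.8 and 38.2 CPM in irradiated vehicle mice, and the ranges overlapped. The log2 fold change was 1.48 (SE 0.28, adjusted p = 0.000149). Libraries 5, 6 and 7 of the dmPGE2 group, 3 of its 4 males, had 286.5, 82.4 and 67.3 CPM, and the other 5 had 33.2 to 49.3 CPM. Without library 5 the difference was 0.84 (SE 0.18, adjusted p = 0.000764). Without libraries 3, 5, 6 and 7, which a principal component set apart in an earlier analysis of these data, it was 0.54 (adjusted p = 0.0814).

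Libraries 5, 6 and 7 also had the 3 lowest Egr1 values of their group, 82 to 103 CPM against 131.5 to 162 CPM in the other 5, and the 3 highest Ier2 values, 228 to 329.5 CPM against 175 to 211 CPM. Their summed HSC markers were the 3 highest of the group, at 4735 to 4850 CPM against 3330 to 3872 CPM. They also had the 3 highest sums of B cell markers (72.7, 85.3 and 95.2 CPM, against at most 70.7 CPM) and the 3 lowest of T and NK cell markers (38.8, 62.3 and 45.3 CPM, against at least 65.7 CPM). Endothelial and stromal markers (6 genes) summed to 82.9 to 108 CPM in them, within the 56.5 to 274.9 CPM of the group. The part of these differences in the Ier3 result was not tested.

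The 24 h level of Ier5 did not depend on dmPGE2 to a detectable degree. Ier5 had 72.2, 105 and 137 CPM in irradiated dmPGE2 mice, against 84, 92.7 and 118 CPM in irradiated vehicle mice (log2 difference 0.01, 95% interval -0.28 to 0.31). Both groups lay above every non-irradiated vehicle sample, by 2.31 (SE 0.15, adjusted p = 3.58e-17) with dmPGE2 and by 2.29 (SE 0.15, adjusted p = 3.94e-17) with vehicle. Radiation with vehicle changed 4 of 8 members at 24 h, near the 44.5% of all genes tested (20.9% higher and 23.5% lower). Besides Ier5, Nab2 was higher by 0.84 (SE 0.15, adjusted p = 6.96e-06) and Nab1 by 0.38 (SE 0.13, adjusted p = 0.0156), while Ier3 was lower, at -0.87 (SE 0.27, adjusted p = 0.00854). The Nab1 call was lost without baseline source 1 (adjusted p = 0.0533) and with the run of sample numbers as a term (0.34, adjusted p = 0.0555).

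Irradiated dmPGE2 mice at 24 h differed from non-irradiated vehicle mice in 2 of 8 members, Ier5 and Nab2 (0.50, SE 0.15, adjusted p = 0.00726), where 30.4% of genes did (15.8% higher). Egr1 had 82, 133 and 162 CPM in irradiated dmPGE2 mice and 123, 169 and 244 CPM in irradiated vehicle mice at 24 h, against 43.8, 79.6 and 673 CPM at baseline, and none of the 3 comparisons among these groups passed. In a model of the irradiated 24 h groups alone, Egr1 was lower with dmPGE2, at -0.49 (adjusted p = 0.0418). Without baseline source 5, Egr1 was 0.89 higher with radiation and vehicle at 24 h than at baseline (SE 0.33, adjusted p = 0.0256). Other cell type markers moved at 24 h: the 5 megakaryocyte markers summed to 207 to 836 CPM in irradiated dmPGE2 mice and 712 to 1612 CPM in irradiated vehicle mice, against 218 to 392 CPM at baseline. The 5 T and NK cell markers summed to 38.8 to 98.5 CPM and 94.6 to 203 CPM in those irradiated groups, against 29.4 to 90.2 CPM at baseline. Summed HSC markers were 3330 to 4850 CPM in irradiated dmPGE2 mice and 2529 to 3540 CPM in irradiated vehicle mice at 24 h, against 3872 to 4838 CPM at baseline. Erythroid markers (7 genes, of which 3 and 4 were at 0 throughout) summed to 2.18 to 17.4 CPM in irradiated dmPGE2 mice and 2.15 to 6.83 CPM in irradiated vehicle mice, against 24.4 to 191 CPM at baseline, where 4 were at 0. Neutrophil markers (8 genes) had medians of 206 CPM and 25.9 CPM in those irradiated groups, against 370.1 CPM at baseline, with overlapping ranges. None of the 10 megakaryocyte, T and NK cell markers was at 0 in every sample of these groups, and their part in the 24 h results was not tested.

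Set against 1 h, the dmPGE2-induced members were lower at 24 h. In irradiated dmPGE2 mice, Egr1 fell by 2.78 (SE 0.43, adjusted p = 1.36e-06), Egr2 by 2.57 (SE 0.72, adjusted p = 0.00382), Nab2 by 1.58 (SE 0.15, adjusted p = 3.44e-12) and Ier2 by 2.01 (SE 0.20, adjusted p = 2.03e-11). The 24 h and 1 h ranges of these 4 genes did not overlap. Ier3 fell by 1.01 (SE 0.27, adjusted p = 0.00311), a call lost in a model of those groups alone (adjusted p = 0.0546). Without library 5 of the 24 h group it fell by 1.67 (SE 0.18, adjusted p = 4.01e-10). Ier5 was higher, by 0.61 (SE 0.15, adjusted p = 0.000862). In all, 6 of 8 members passed, where 36.7% of genes did (18.8% higher and 17.9% lower).

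In irradiated vehicle mice, 4 of 8 members were lower at 24 h than at 1 h, where 51.4% of genes differed (27.1% lower). Ier3 fell by 2.04 (SE 0.28, adjusted p = 6.93e-08), Ier5 by 1.62 (SE 0.15, adjusted p = 1.71e-12) and Ier2 by 1.17 (SE 0.19, adjusted p = 1.69e-06), each with ranges that did not overlap. Nab2 was lower by 0.34 (adjusted p = 0.0468), a call lost when any 1 of 8 samples was left out. Time and the run of sample numbers cannot be told apart except through the baseline columns that share a tag, if these are repeats. With that run as a term, the calls of Nab2 with vehicle (-0.36, adjusted p = 0.232), of Egr2 with dmPGE2 (-1.48, adjusted p = 0.449) and of Ier5 with dmPGE2 (0.55, adjusted p = 0.0739) were lost. Egr2 with dmPGE2 also lost its call without 24 h libraries 3, 5, 6 and 7 (-1.81, adjusted p = 0.0712).

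Whether the response to dmPGE2 after radiation differed between 24 h and 1 h was tested as well, and 6 of 8 members passed, where 25.7% of genes did (13% higher and 12.7% lower). The dmPGE2 response was lower at 24 h for Egr1 (-3.68, SE 0.58, adjusted p = 1.1e-05), Egr2 (-2.60, SE 0.99, adjusted p = 0.0451), Nab2 (-1.24, SE 0.21, adjusted p = 1.44e-05) and Ier2 (-0.84, SE 0.27, adjusted p = 0.0182). It was higher at 24 h for Ier5 (2.22, SE 0.21, adjusted p = 2.37e-11), whose 1 h fall was gone, and for Ier3 (1.03, SE 0.39, adjusted p = 0.0428). The Egr2 call was lost when any 1 of 19 samples was left out and the Ier3 call when any 1 of 14 was, with Ier3 at 0.39 (adjusted p = 0.265) without library 5 of the 24 h dmPGE2 group.

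The column names of 24 h samples give the sex of the mouse. Egr1 had 108 ± 30.7 CPM in males with dmPGE2 and 208.5 ± 39.4 CPM in males with vehicle, against 144 ± 14.3 CPM in females with dmPGE2 and 150.5 ± 20.1 CPM in females with vehicle (SD, n = 4 each). The change of Egr1 with dmPGE2 on the log2 scale was -0.93 in males (SE 0.17, adjusted p = 0.00237) and -0.049 in females (SE 0.17, adjusted p = 0.960). In males 2 of 7 members tested passed, Egr1 and Ier3, where 16% of genes did (7.66% higher and 8.39% lower), and in females 0 of 7, where 0.321% of genes did. Libraries 5, 6 and 7, with low Egr1 and high Ier3, are 3 of the 4 dmPGE2 males. For Egr1 the difference between the sexes was -0.88 (SE 0.24, adjusted p = 0.273) and did not pass. Ier3 had 119.6 ± 112.5 CPM in males with dmPGE2 and 32.5 ± 5.64 CPM in males with vehicle, against 43 ± 6.88 CPM and 25.7 ± 5.55 CPM in females, and its difference between the sexes did not pass either (1.14, SE 0.59, adjusted p = 0.464). Without libraries 5, 6 and 7, which leaves 1 dmPGE2 male, the differences between the sexes were -0.38 for Egr1 and -0.36 for Ier3. edgeR called 0 of 7 members tested and 0 of all genes for the difference between the sexes, with 1623 genes at an unadjusted p below 0.05.

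Within groups, some members varied together from sample to sample. Of the 28 pairs of members, 9 had a Pearson correlation of log2 CPM deviations from the group mean with a permutation p, adjusted over the 28 pairs, below 0.05, and 8 of these passed with Spearman's rho too. Ier2 went with Egr1 (r = 0.728, permutation p = 2e-05, adjusted 0.00028; rho = 0.583, permutation p = 0.00012, adjusted 0.00168; n = 47) and with Ier3 (r = 0.640, permutation p = 1e-05, the smallest that these permutations can give, adjusted 0.00028; rho = 0.683). Without the 2 samples farthest from the median of the first gene, r was 0.601 and 0.609.

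Egr1, Egr2 and Egr3 correlated with one another (r = 0.388, 0.398 and 0.495, adjusted permutation p = 0.00299, 0.0137 and 0.00882). Nab1 ran the other way, with r of -0.480 to Egr1 (adjusted permutation p = 0.00882) and -0.451 to Ier2 (adjusted permutation p = 0.00588). Its r was -0.309 to Egr2 (adjusted permutation p = 0.0338) and -0.395 to Egr3 (adjusted permutation p = 0.0174). Egr1 with Nab1 was the pair that did not pass with Spearman's rho (-0.366, adjusted permutation p = 0.0509). Samples of different groups that share a tag are not wholly independent, and the samples tagged 5-2 hold high Egr1 with the lowest Nab1 in all 3 treated 1 h groups. Without those 4 samples, Ier2 with Egr1 (r = 0.534, adjusted permutation p = 0.0175), Ier2 with Ier3 (r = 0.614), Egr1 with Egr2 (r = 0.419) and Nab1 with Ier2 (r = -0.447, adjusted permutation p = 0.0480) were among the 5 pairs that passed, and Egr1 with Nab1 (r = -0.361) and with Egr3 (r = 0.320) did not (adjusted permutation p = 0.103 each). Without the non-irradiated vehicle columns, 4 pairs passed, Egr1 with Ier2 and with Egr2, Egr2 with Egr3 and Ier2 with Ier3. Egr1 with Egr3 (r = 0.388) and Nab1 with Ier2 (r = -0.417) did not (adjusted permutation p = 0.0646 each). Nab2 and Ier5 correlated with no other member past the threshold.

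**Figure D4:**
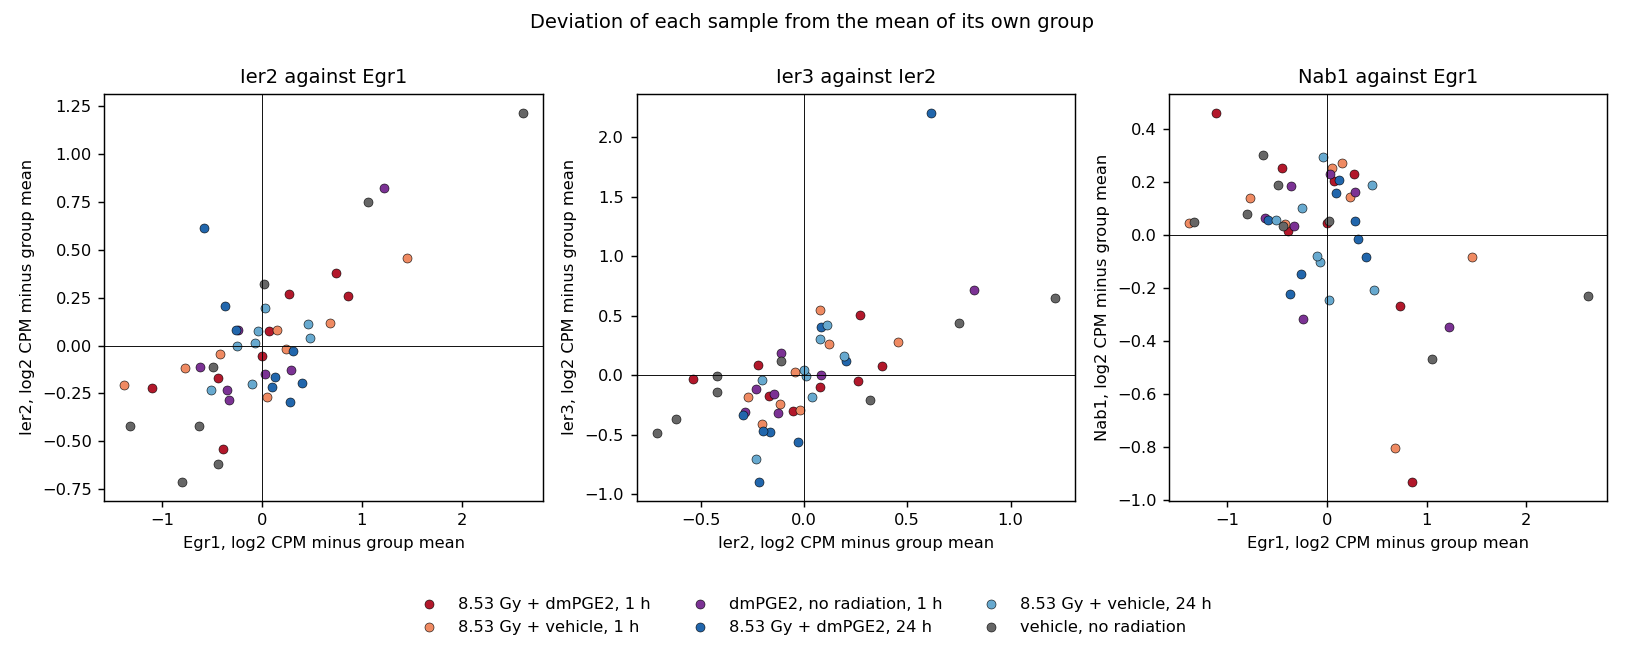
Deviation of log2 CPM from the mean of its own group for Ier2 against Egr1, Ier3 against Ier2 and Nab1 against Egr1, 1 point per sample (n = 47), coloured by group. The first 2 pairs rise together (r = 0.728 and 0.640) and the third falls (r = -0.480), with a few 1 h samples and 1 baseline source at its lower right.

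By group means alone, some genes outside the list had nearly the same profile as a member over the 6 groups. Likeness was measured as the root mean square difference of centred group means of log2 CPM over 10749 genes. The nearest to Nab2 was Bcl2l11, which encodes the pro-apoptotic protein Bim (0.11), and the nearest to Ier2 was the kinase gene Pim3 (0.14). Bhlhe40, a transcriptional repressor gene, was nearest to Ier3 (0.16), followed by Nfkbid (0.24) and Map3k8 (0.33). Egr2 was closest to the Notch regulator gene Nrarp (0.15) and to the oxygen sensor gene Egln3 (0.18). For Egr1 the nearest were Gpr65, a receptor that senses acid (0.41), B3gnt7 (0.47) and Rgs2 (0.50). Ier5 had no close match: Tob1, an antiproliferative gene, was nearest at 0.51, and Slc19a2 and Bbc3 followed at 0.66 and 0.67. Nab1, which hardly varied, was nearest to Fdx1 (0.03).

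Many of 35 other immediate early genes changed at 1 h as well. In irradiated dmPGE2 against irradiated vehicle mice at 1 h, 15 were higher, 4 were lower and 16 did not pass, with a median log2 fold change of 0.81, beside 0.01 over all genes. Of all genes tested, 6.92% were higher and 8.04% lower. Klf2 (4.82, SE 0.68), Fos (4.37, SE 0.92) and Nr4a1 (3.88, SE 0.38) rose most, while Jun fell by 1.65 (SE 0.41) and Jund by 1.19 (SE 0.17). Radiation with vehicle gave 22 higher and 2 lower, led by the antiproliferative gene Btg2 (5.16, SE 0.26), and dmPGE2 without radiation gave 22 higher and 1 lower. Among all genes, 10.9% passed in the first of these comparisons (5.85% higher) and 7.95% in the second (3.42% higher). Btg2 responded to dmPGE2 differently with radiation than without (-3.04, SE 0.32, adjusted p = 1.7e-09), and so did the kinase gene Sik1 (-2.53, SE 0.44, adjusted p = 0.00013). Unlike Ier5, Btg2 was not lower on average with dmPGE2 after radiation, at 780 CPM against 686 CPM with vehicle. Without radiation it had 180 CPM with dmPGE2 and 19.2 CPM with vehicle. Sik1 rose with dmPGE2 without radiation (4.08, SE 0.34). In the test of dmPGE2 by radiation, 9 of the 35 were lower and 2 higher, where 2.32% of all genes passed (1.43% lower). At 24 h, 11 were higher and 1 lower with dmPGE2 after radiation, where 23.9% of all genes passed (12.4% higher). The 3 with the highest fold changes there spread widely over the 8 irradiated dmPGE2 samples. Klf2 had 35.2 ± 74.8 CPM, Fosl2 81.55 ± 85.46 CPM and Zfp36 78.2 ± 64.7 CPM (SD).

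Of 20 genes upstream of the EGR genes in the ERK, SRF and CREB pathways, 3 were higher and 1 lower with dmPGE2 after radiation at 1 h, with a median of -0.01. That is 4 of 20, near the 15% of all genes. Elk3, a ternary complex factor gene, was higher by 0.63 (SE 0.11), and Creb1, which encodes CREB, was lower, at -0.61 (SE 0.13). With radiation and vehicle, Elk3 alone passed, at -0.52 (SE 0.11). Of 11 genes of the NuRD complex, through which NAB proteins repress, Mbd3 alone was higher with dmPGE2 after radiation at 1 h (0.56, SE 0.12), 1 of 11 against that 15%, and 0 passed with radiation and vehicle or with dmPGE2 alone.

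Of 12 HSF1 and heat shock genes, the class that IER5 acts on in human cells, 3 rose with radiation and vehicle at 1 h, where 5.85% of all genes rose. Hspa1a, an inducible HSP70 gene, had 3.27 ± 0.917 CPM in irradiated vehicle mice, against 0.402 ± 0.269 CPM in non-irradiated vehicle mice (3.0, SE 0.78, adjusted p = 0.00573). Hspa1b, a near-identical copy whose reads could be split with those of Hspa1a, rose by 2.19 (SE 0.62, adjusted p = 0.0133) and Dnajb1, a cochaperone gene, by 0.74 (SE 0.09, adjusted p = 3.24e-08). With dmPGE2 after radiation 1 of the 12 was lower, near the 8.04% of all genes. It was Dnajb1 (-0.65, SE 0.09, adjusted p = 5.55e-07), at 235 ± 14.1 CPM in irradiated dmPGE2 mice against 369.5 ± 51.3 CPM in irradiated vehicle mice. Its response to dmPGE2 also differed with radiation (-0.52, SE 0.13, adjusted p = 0.0204). The median of the 12 was 0.11 with radiation and vehicle, beside -0.02 over all genes.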

How the data were processed

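Per the labels' protocols, total RNA of sorted HSC was copied with SMART-Seq v4, a kit that marks no strand and carries no molecular identifiers, and made into libraries with Nextera XT. The submitters' processing notes name STAR 2.5.2b, featureCounts from Subread 1.5.1 and the build mm10. The authors deposited whole-number counts of reads for each gene and column. Their annotation and strand setting are stated in no source used here.

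A column was put in a group by its name and, where the name gives no time or no radiation, by the number of samples the labels leave. Baseline columns with a shared tag were summed. edgeR 4.0.16 in R 4.3.3 kept 14196 genes (filterByExpr, count minimum 10), scaled by TMM and fitted group means to 47 samples by robust quasi-likelihood (common dispersion 0.119, 41 residual degrees of freedom). Genes are called at a Benjamini-Hochberg adjusted p below 0.05. SE is the log2 fold change over the square root of F, and 95% intervals use the t distribution on 41 degrees of freedom. Log2 CPM use a prior count of 3, and CPM per kb divides by the deposited exon length, the authors' other column. Correlations used 100000 permutations within groups. DESeq2 1.42.0, other scaling, filters, blocks and omissions were alternatives. The scripts were tested on simulated data. Named genes are the 8 members in every comparison, the called genes of each list with the 3 highest and 3 lowest fold changes, and the 3 nearest genes per member; relatives and the text's selection from these sets were chosen after values were seen. The members and lists were chosen with earlier results of these data known.

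Tags in column names were checked for pairing. Deviations of same-tag samples correlated above 0.1 in all 8 pairs of irradiated dmPGE2 with irradiated vehicle mice at 1 h (0.177 to 0.659), all 7 of non-irradiated dmPGE2 with vehicle mice (0.198 to 0.602) and all 7 of the dmPGE2 groups (0.127 to 0.504), and not in all pairs elsewhere. Total counts per column were 15049364 to 26217041. Reads are not independent molecules, so errors rest on the spread between samples, which the labels do not say were pooled.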

Additional observations from a re-analysis of the deposited data

Results flagged for a closer look

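Of 48 sets of a member and a group, 4 held a sample far from the others on the log2 CPM scale. The rule was Dixon's criterion at the 95% level, which chance meets in about 1 of 20 sets. Egr3 was at 0 CPM in library 6 of the non-irradiated dmPGE2 mice, where the other 6 had 0.454 to 0.994 CPM. Nab1 was at 88.8 CPM in library 5 of the irradiated vehicle mice at 1 h, where the others had 146.5 to 187 CPM. Ier2 was at 707 CPM in library 2 of the non-irradiated dmPGE2 mice, where the others had 328 to 424 CPM. These last 2 samples carry the same tag, 5-2. Ier3 was at 286.5 CPM in library 5 of the irradiated dmPGE2 mice at 24 h, where the others had 33.2 to 82.4 CPM. Egr1 in baseline source 5, at 673 CPM where the others had 43.8 to 229 CPM, was not flagged on the log2 scale.

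The response of Ier5 to dmPGE2 differed between irradiated and non-irradiated mice at 1 h by -1.98 on the log2 scale, by the test of that difference. Between 24 h and 1 h the dmPGE2 response of irradiated mice differed for Ier5 (2.22), Egr2 (-2.60), Nab2 (-1.24), Ier3 (1.03), Egr1 (-3.68) and Ier2 (-0.84), each by its own test. The Egr2 call was lost when any 1 of 19 samples was left out, and the Ier3 call when any 1 of 14 was. Without libraries 5, 6 and 7 of the 24 h dmPGE2 group the values were -2.08 (adjusted p = 0.129) for Egr2 and 0.11 (adjusted p = 0.801) for Ier3, by edgeR's quasi-likelihood test.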

How the results depend on the processing

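Of 1042 values of single members under an alternative, 979 kept their direction and their side of the threshold. Of the 46 called values, 42 kept their call whichever of the 47 samples was left out. Between irradiated dmPGE2 and vehicle mice at 24 h, 0 members passed without libraries 3, 5, 6 and 7, and 2 in a model of those groups alone, with sex as a covariate or without the 4 samples tagged 5-2; leaving out single samples gave 1 to 2 there and 1 to 2 for dmPGE2 by radiation. Of the pairs of members, 4 were correlated without the non-irradiated vehicle columns and 5 without the samples tagged 5-2, against 9. Without dmPGE2 24 h libraries 3, 5, 6 and 7, those 9 stayed called and further pairs passed. These were Egr1 with Ier3 (r = 0.581, adjusted permutation p = 0.00271), Egr2 with Ier2 (r = 0.319, adjusted permutation p = 0.0121) and Egr3 with Ier2 (r = 0.377, adjusted permutation p = 0.0192). Egr1 with Ier3 had r = 0.218 with all samples (adjusted permutation p = 0.19). With the tag as a block, 6 members passed for dmPGE2 with radiation at 1 h and 4 for radiation under dmPGE2, and the counts of the other comparisons with a block did not change.

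All values that changed sign were small or imprecise and passed under neither setting. Without dmPGE2 24 h libraries 5, 6 and 7, dmPGE2 after radiation at 24 h gave -0.074 for Ier5, 0.32 for Egr2 and -0.025 for Ier2, and dmPGE2 with radiation against baseline at 24 h gave 0.31 for Egr3, -0.31 for Ier3 and -0.042 for Ier2. Without libraries 3, 5, 6 and 7, the first comparison gave -0.0071 for Ier5, 0.57 for Egr2, 0.076 for Egr3 and -0.031 for Ier2, and the second 0.62 for Egr3, -0.33 for Ier3 and -0.055 for Ier2. Without the samples tagged 5-2, radiation under dmPGE2 gave -0.030 for Egr3, radiation with vehicle at 24 h gave 0.22 for Ier2, and dmPGE2 with radiation against baseline at 24 h gave 0.38 for Egr1. With the run of sample numbers as a term, Egr3 was -0.059 for radiation with vehicle at 24 h and -1.08 for 24 h against 1 h with vehicle, and with baseline columns of the same run the first was -0.049. For the sexes, leaving out libraries 5, 6 and 7 gave 0.29 for Nab2, -0.36 for Ier3 and -0.0076 for Ier2. The cause was not tested. For the sexes, the alternative with all columns that name a sex uses the same columns and was not run. Depth limits Egr2 and Egr3, whose counts were low. The alternatives on tag 5-2, on runs, on baseline columns kept apart and on single samples, and libraries 5, 6 and 7 for the sexes, were chosen after seeing the data.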
